A study of Mus musculus with 6 samples.

Results

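The 40 genes described here code for enzymes and carriers that burn pyruvate and fatty acids in mitochondria, together with a few of their cytosolic counterparts. They were taken by name from the 23159 genes of the deposited counts, and all 40 were found. Of these, 21 belong to the tricarboxylic acid (TCA) cycle and the reactions that feed or drain it, and 19 to fatty acid beta-oxidation, and the 2 groups are reported separately. The RNA came from growth plate chondrocytes of mice, sorted in 3 experiments into label-retaining chondrocytes (LRCs), the slowly cycling cells that keep a histone label, and non-LRCs, the cells that have diluted it. The 6 libraries are 3 pairs, each of LRCs and non-LRCs from several pooled littermates.

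Both groups came from the same mice and shared every allele and treatment. These mice, called Col2-Q, were homozygous for *Col2a1-tTA* at the *Peli2* locus, *TRE-H2B-GFP* at the *Col1a1* locus, *Col2a1-creER* and *R26R-tdTomato*. The mice were 49 days old and had received doxycycline from postnatal day 21 to day 49, which stops new synthesis of the H2B-GFP label, and tamoxifen on days 46 and 47, which switches on tdTomato. LRCs were sorted as GFP-high and tdTomato-positive cells (about 10000 cells a library) and non-LRCs as GFP-mid-to-low and tdTomato-positive cells (about 50000 cells a library), both without CD45. Both the label and the recombinase were driven by the *Col2a1* promoter, so cells that never used it are absent by design, and the study itself notes that H2B-GFP can also be leaky in cells other than chondrocytes. Chondrocyte markers were abundant in all 6 libraries, with a summed level of 82900 to 237000 counts per 1000000 counted reads (CPM) over 10 genes.

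In the TCA cycle, acetyl-CoA from pyruvate or from fatty acids is joined to oxaloacetate by citrate synthase and oxidised stepwise back to oxaloacetate, which gives reduced cofactors to the respiratory chain. In beta-oxidation, fatty acids are moved into mitochondria as carnitine esters and shortened by repeated rounds of dehydrogenation, hydration, a second dehydrogenation and thiolysis, each round releasing acetyl-CoA. Growth plate chondrocytes live in a tissue without blood vessels and are known for a strong reliance on glycolysis. Several TCA intermediates also leave the mitochondrion, and citrate that does so is split by *Acly* into acetyl-CoA for lipid synthesis and histone acetylation.

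Enzyme genes of both pathways mostly had lower levels in LRCs than in non-LRCs. The median log2 fold change (positive values are higher in LRCs) was -0.53 over the 21 TCA genes and -0.33 over the 18 beta-oxidation genes with enough counts for a test, against -0.10 over all 13728 genes tested. No member passed an adjusted p of 0.05 in the edgeR quasi-likelihood test, in which the experiment was a block, with 17 of the 39 tested members lower and 2 higher at an unadjusted p below that threshold (9.53% and 8.89% of all genes). In each pathway 1 gene went the other way in all 3 experiments: *Acly*, the exit of citrate to the cytosol, and *Cpt1a*, the entry of fatty acids into mitochondria, had higher levels in LRCs. These data are from sorted bulk cells, so fewer cells with a transcript and less of it per cell cannot be told apart.

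Promoter sequences are shown for the member with the largest fitted fold change in each direction in each pathway, *Idh2* and *Acly* for the TCA cycle and *Hadh* and *Cpt1a* for beta-oxidation. In the GENCODE annotation of GRCm38 these genes lie at chr7:80094846-80115392 (*Idh2*), chr11:100476353-100528000 (*Acly*), chr3:131233419-131272101 (*Hadh*) and chr19:3322334-3385733 (*Cpt1a*). The deposited counts were made per gene with an annotation that is not given in the sources used here. *Hadhb* is added because *Hadha* and *Hadhb*, the subunits of the trifunctional protein, start back to back on chromosome 5 with 272 bases between their starts. Each stretch comes from the 250 bases before the RefSeq start on GRCm38.p6, is read 5′ to 3′ on the strand of the gene and is limited to bases outside annotated exons. The *Cpt1a* stretch lies before the RefSeq start but inside the GENCODE span of the gene, downstream of its GENCODE start. Capitals mark the GC box GGGCGG or its reverse complement, the sequence bound by Sp1-type factors.
*Idh2*, chr7:80115393-80115600, minus strand: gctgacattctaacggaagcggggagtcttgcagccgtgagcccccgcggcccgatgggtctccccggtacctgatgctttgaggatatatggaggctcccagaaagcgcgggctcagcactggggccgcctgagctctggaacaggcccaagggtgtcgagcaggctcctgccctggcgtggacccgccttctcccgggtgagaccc
*Acly*, chr11:100528001-100528250, minus strand: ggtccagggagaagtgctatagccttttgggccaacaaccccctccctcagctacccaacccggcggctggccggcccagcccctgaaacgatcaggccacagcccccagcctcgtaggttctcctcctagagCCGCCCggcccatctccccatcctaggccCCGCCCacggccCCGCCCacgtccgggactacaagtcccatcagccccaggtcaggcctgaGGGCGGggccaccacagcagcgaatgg
*Hadh*, chr3:131272102-131272351, minus strand: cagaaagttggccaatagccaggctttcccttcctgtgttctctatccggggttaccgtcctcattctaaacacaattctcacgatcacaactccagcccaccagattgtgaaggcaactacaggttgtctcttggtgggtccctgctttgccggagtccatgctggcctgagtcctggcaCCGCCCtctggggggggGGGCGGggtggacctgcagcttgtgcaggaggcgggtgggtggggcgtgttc
*Cpt1a*, chr19:3323051-3323284, plus strand: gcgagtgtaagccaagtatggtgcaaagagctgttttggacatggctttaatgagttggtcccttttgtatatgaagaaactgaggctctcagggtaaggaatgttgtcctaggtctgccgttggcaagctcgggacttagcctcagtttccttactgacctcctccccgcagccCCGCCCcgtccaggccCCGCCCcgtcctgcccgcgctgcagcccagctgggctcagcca
*Hadhb*, chr5:30155163-30155247, plus strand: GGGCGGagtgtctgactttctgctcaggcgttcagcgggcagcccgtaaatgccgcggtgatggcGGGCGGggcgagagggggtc

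The *Idh2* stretch of 208 bases held 0 GC boxes, and that of *Acly* (250 bases) held 4. Those of *Hadh* (250 bases), *Cpt1a* (234 bases) and *Hadhb* (85 bases) held 2 each. These counts were not scaled to the lengths of the stretches. Over whole windows of 300 bases, with 250 before and 50 after the start, 36 of the 40 members had a RefSeq sequence. A GC box on either strand was present in 29 of these 36 (80.6%), against 38.2% of 27025 genes. It was found in 16 of the 21 members that were lower in LRCs in all 3 experiments and in 13 of the 15 others. The CCAAT box CCAAT was in 52.8% of members against 41.1% of all genes, and the core of the NRF1 site, GCGCNTGCG, in 19.4% against 7.12%. The ETS site CCGGAAG was in 13.9% against 9.93%, the nuclear receptor element AAGGTCA in 5.56% against 5.38%, and the E-box CACGTG in 5.56% against 8.09%. A match to these letters is a description of the window, and overlaps between motifs were not removed. The 27025 genes are all those with a RefSeq window and were not limited to genes with enough counts for a test here. Whether the shares of members differ from those of tested genes was not examined.

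Levels were compared between genes as CPM per kilobase of exon. *Acly* stood highest of the 40, at 142 ± 63.6 (SD, n = 3) in LRCs and 86.1 ± 35.5 in non-LRCs, where it was hardly above the next gene. It was followed in the TCA group by the cytosolic malate dehydrogenase *Mdh1*, at 55.9 ± 11.3 against 84.5 ± 31.9, and its mitochondrial partner *Mdh2*, at 37.3 ± 9.39 against 47.9 ± 9.91, whose SDs overlapped in both groups. Among beta-oxidation genes the highest CPM per kilobase belonged to *Etfa* (39.8 ± 9.96 in LRCs, 53.4 ± 13.4 in non-LRCs), *Acadvl* (39.6 ± 3.76 and 33.6 ± 7.13) and *Acadl* (33.5 ± 13.8 and 32.8 ± 12.5), which did not differ beyond their spread. The short-chain dehydrogenase *Acads* was the lowest tested member, at 0.705 ± 0.401 in LRCs and 1.13 ± 0.444 in non-LRCs. *Cpt1b*, the muscle form of the carnitine acyltransferase of the outer membrane, had 3 counts in the LRC library of experiment 3 and 0 in the other 5 libraries, which by counting error alone allows up to 0.0257 to 0.143 CPM there. It did not pass the filter on low counts. Of the 3.372 kb of *Cpt1b* exon, 2744 bases are shared with another annotated gene, *Gm44502*, on the same strand. Only non-ambiguous reads were counted, so reads from these bases may have been left out, and a low count need not mean a low level.

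Of the 21 TCA genes, all of which passed that filter, 14 were lower in LRCs in all 3 experiments, against 26.1% of all genes tested, and 1, *Acly*, was higher in all 3, against 20.4%. In 10 genes every LRC library lay below every non-LRC library (10.3% of all genes). An unadjusted edgeR p below 0.05 was reached by 11 genes in the lower direction (9.53% of all genes) and by 1 in the higher direction (8.89%). With Benjamini-Hochberg adjustment over all genes, edgeR called 0 TCA genes, with 1.28% of all genes called in either direction. The lowest adjusted p was 0.070, that of *Idh2*. DESeq2 with the same block, which called 6.15% of all genes lower and 6.16% higher, called 6 TCA genes lower (*Idh1*, *Idh2*, *Idh3a*, *Idh3g*, *Fh1* and *Pdhb*) and 1 higher (*Acly*). Taken by experiment, the median log2 difference of the TCA genes was -0.34 in experiment 1, -0.63 in experiment 2 and -0.51 in experiment 3. Over all genes tested the same median was -0.012, -0.156 and -0.005.

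**Figure D1:**
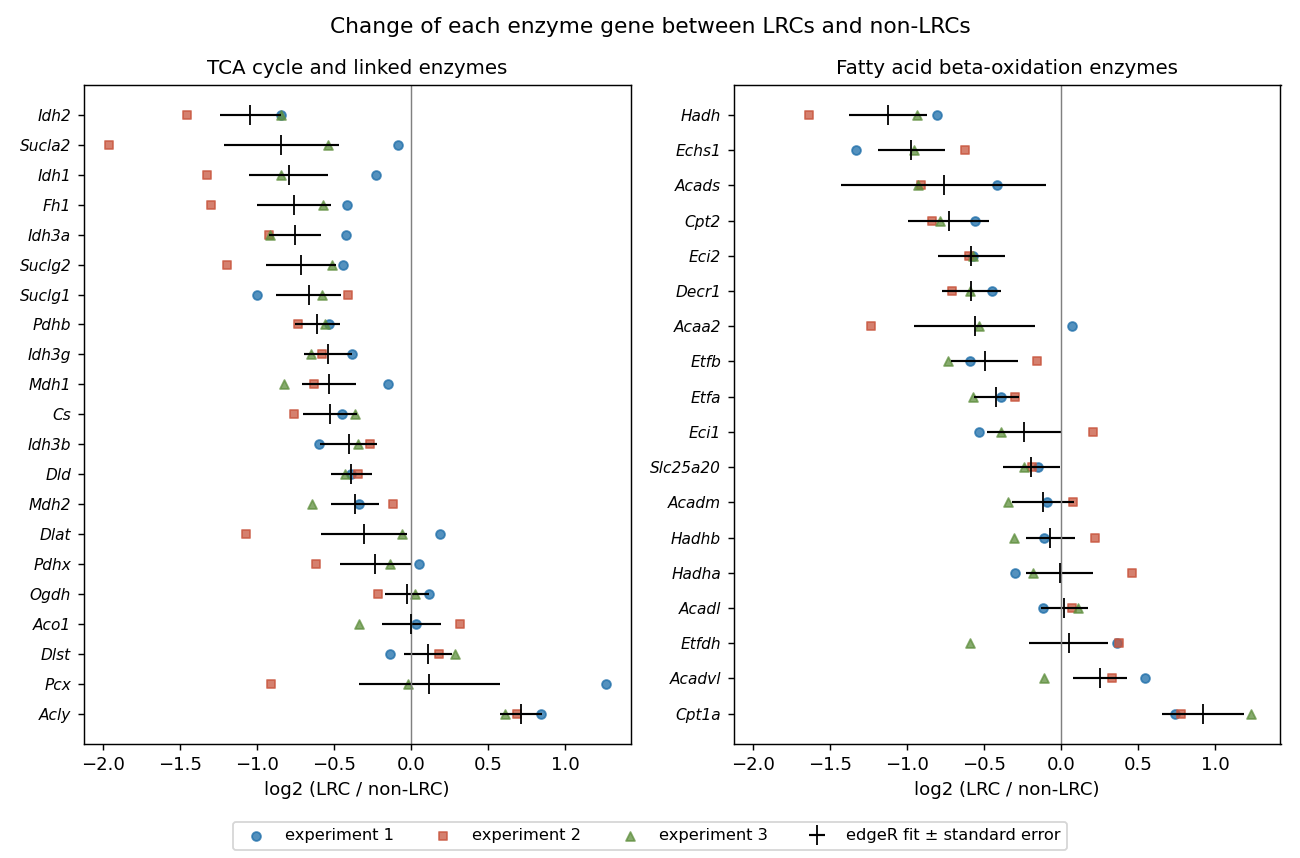
Change of each tested enzyme gene between LRCs and non-LRCs. The x axis is the log2 ratio of CPM (prior count 2 for the 3 coloured symbols, 1 per experiment), black ticks with bars are the edgeR estimate ± standard error, and genes are ordered by that estimate. Most symbols lie left of 0, with *Acly* and *Cpt1a* to the right in all 3 experiments, and experiment 2 lies far left for *Sucla2* (-1.96).

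The first steps of the cycle, from oxaloacetate to 2-oxoglutarate, are covered by 5 mitochondrial members. Each of them was lower in LRCs in every experiment (26.1% of all genes), and in all 5 the groups did not overlap (10.3% of all genes). *Idh2*, the NADP-dependent mitochondrial isocitrate dehydrogenase, had 32.4, 21.4 and 49.0 CPM in the LRC libraries of experiments 1, 2 and 3, against 58.3, 58.6 and 87.9 CPM in the non-LRC libraries. All 3 LRC values lay below the lowest non-LRC value. Its level was 2.06-fold lower in LRCs (edgeR log2 fold change -1.04, SE 0.20, adjusted p = 0.070, DESeq2 adjusted p = 0.000185). *Idh2* kept a log2 fold change of -0.84 without experiment 2, the experiment with the shallowest library, and edgeR then called it (adjusted p = 0.0359), as it called 5.37% of all genes.

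*Idh3a*, *Idh3b* and *Idh3g* code for the catalytic and the accessory subunits of the NAD-dependent isocitrate dehydrogenase, the form that runs the cycle. *Idh3a* had 54.4, 65.5 and 68.5 CPM in LRCs, against 72.9, 124 and 129 CPM in non-LRCs, with the non-LRC library of experiment 1 closest to the LRC values. Its edgeR log2 fold change was -0.76 (SE 0.17, adjusted p = 0.0937), and DESeq2 called it (adjusted p = 0.00385). *Idh3g* had 42.9, 53.8 and 42.0 CPM in LRCs, against 56.1, 80.4 and 66.1 CPM in non-LRCs. The lowest non-LRC value of *Idh3g* was only slightly above its highest LRC value. *Idh3b* ranged from 25.6 to 28.9 CPM in LRCs and from 30.8 to 43.7 CPM in non-LRCs, and the difference was -0.41 on the log2 scale (SE 0.19), with an unadjusted edgeR p of 0.0734. *Cs*, citrate synthase, had 40.9, 31.5 and 36.5 CPM in LRCs, against 56.0, 53.4 and 47.1 CPM in non-LRCs, and the groups did not overlap. The *Cs* level was 1.44-fold lower in LRCs (edgeR adjusted p = 0.197).

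Pyruvate enters the cycle through the pyruvate dehydrogenase complex, whose listed members code for E1 beta (*Pdhb*), E2 (*Dlat*), E3 (*Dld*) and the E3-binding protein (*Pdhx*). *Pdhb* had 54.0, 57.0 and 73.7 CPM in LRCs, against 78.3, 94.8 and 109 CPM in non-LRCs. The groups did not overlap, and the 3 within-experiment differences were close to each other (-0.54, -0.73 and -0.56 on the log2 scale). For *Pdhb* the edgeR log2 fold change was -0.61 (SE 0.15, adjusted p = 0.108) and the DESeq2 adjusted p was 0.00841. *Dld*, an enzyme shared with the 2-oxoglutarate dehydrogenase complex, had 92.0, 117 and 96.8 CPM in LRCs, against 121, 148 and 130 CPM in non-LRCs. Its highest LRC library lay just under its lowest non-LRC library, and the log2 differences were again close (-0.39, -0.35 and -0.43).

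The other 2 subunits of the complex, *Dlat* and *Pdhx*, overlapped between groups and had fitted log2 fold changes of -0.31 and -0.23, with unadjusted edgeR p of 0.313 and 0.354. Both values rested on experiment 2, and were 0.06 and -0.04 without it. Levels ranged from 23.9 to 47.8 CPM in LRCs and from 36.6 to 50.3 CPM in non-LRCs for *Dlat*, and from 17.4 to 26.8 and from 17.8 to 29.5 CPM for *Pdhx*. *Pcx*, pyruvate carboxylase, which makes oxaloacetate directly from pyruvate, had the largest standard error of the group, with 21.8, 5.11 and 18.5 CPM in LRCs against 9.06, 9.66 and 18.7 CPM in non-LRCs. Its LRC level was above that of non-LRCs in experiment 1, below it in experiment 2 and level with it in experiment 3. The fitted difference was 0.12 on the log2 scale (SE 0.46).

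From 2-oxoglutarate to succinate the cycle uses a dehydrogenase complex and then a ligase. *Ogdh*, the first subunit of 2-oxoglutarate dehydrogenase, had 202, 116 and 222 CPM in LRCs, against 187, 134 and 218 CPM in non-LRCs. The values varied with the experiment more than with the group, and the fitted log2 fold change was -0.03 (SE 0.14). *Dlst*, its E2 subunit, had 92.2, 107 and 75.2 CPM in LRCs, against 101, 94.6 and 61.7 CPM in non-LRCs, with overlapping groups and a log2 fold change of 0.11 (SE 0.16).

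All 3 succinyl-CoA ligase genes were lower in LRCs in every experiment. *Suclg1* codes for the alpha subunit common to both forms of this enzyme, *Suclg2* for the GTP-specific beta subunit and *Sucla2* for the ATP-specific one. *Suclg2* had 25.0, 16.9 and 30.6 CPM in LRCs, against 34.0, 38.9 and 43.7 CPM in non-LRCs, without overlap. *Suclg1* had 12.6, 32.5 and 24.1 CPM in LRCs, against 25.4, 43.3 and 36.0 CPM in non-LRCs, so that the groups overlapped although each pair went the same way. Fitted log2 fold changes were -0.72 (SE 0.23) for *Suclg2* and -0.67 (SE 0.21) for *Suclg1*, with edgeR adjusted p of 0.182 and 0.180. *Sucla2* had 40.6, 16.3 and 49.7 CPM in LRCs, against 43.2, 63.8 and 72.4 CPM in non-LRCs. Most of its difference lay in experiment 2: the log2 fold change was -0.84 over all experiments (SE 0.37, with an unadjusted edgeR p of 0.0639) and -0.31 without experiment 2.

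*Fh1*, fumarase, had 26.8, 19.5 and 27.2 CPM in LRCs, against 35.7, 48.1 and 40.4 CPM in non-LRCs. All LRC values of *Fh1* lay below all non-LRC values, and the level was 1.69-fold lower (edgeR log2 fold change -0.76, SE 0.24, adjusted p = 0.179, DESeq2 adjusted p = 0.0488). *Mdh2*, which closes the cycle, was lower in each experiment with overlapping groups, at 103 to 169 CPM in LRCs and 130 to 197 CPM in non-LRCs (edgeR log2 fold change -0.37, SE 0.16, with an unadjusted p of 0.059). Over the 17 mitochondrial members together, the summed level was 930, 895 and 1043 CPM in LRCs, against 1106, 1284 and 1374 CPM in non-LRCs. The 2 groups did not overlap in this sum. Over all 21 TCA genes, with the cytosolic members, the summed level was 2163, 1517 and 2101 CPM in LRCs. It was 1893, 1864 and 2307 CPM in non-LRCs, with overlap.

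Cytosolic members had differences in both directions. *Idh1*, the cytosolic NADP-dependent isocitrate dehydrogenase, had 29.8, 16.0 and 32.9 CPM in LRCs, against 34.9, 40.1 and 59.3 CPM in non-LRCs. The groups did not overlap, with the closest pair in experiment 1 (edgeR log2 fold change -0.80, SE 0.26, adjusted p = 0.183, DESeq2 adjusted p = 0.0489). *Mdh1*, of the malate-aspartate shuttle, had 111, 166 and 154 CPM in LRCs, against 123, 256 and 272 CPM in non-LRCs. The non-LRC library of experiment 1 fell among the LRC values, and the edgeR log2 fold change was -0.53 (SE 0.18, adjusted p = 0.191). *Aco1*, cytosolic aconitase and iron regulatory protein, was near equal in the 2 groups, with a range of 48.1 to 55.3 CPM in LRCs and 44.4 to 61.0 CPM in non-LRCs and a mean of 50.6 ± 4.08 CPM in LRCs, against 50.9 ± 8.86 CPM in non-LRCs (SD, n = 3).

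*Acly*, ATP citrate lyase, was the one TCA-linked member higher in LRCs in every experiment. It had 1045, 385 and 824 CPM in LRCs, against 583, 239 and 541 CPM in non-LRCs. The levels overlapped, since both libraries of experiment 2 were low, but within each experiment the LRC library was above its partner by 0.84, 0.69 and 0.61 on the log2 scale. The fitted level was 1.64-fold higher in LRCs (edgeR log2 fold change 0.71, SE 0.14, adjusted p = 0.0752, DESeq2 adjusted p = 3.76e-05). Without experiment 2, edgeR called it, with a log2 fold change of 0.72 and an adjusted p of 0.0475.

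**Figure D2:**
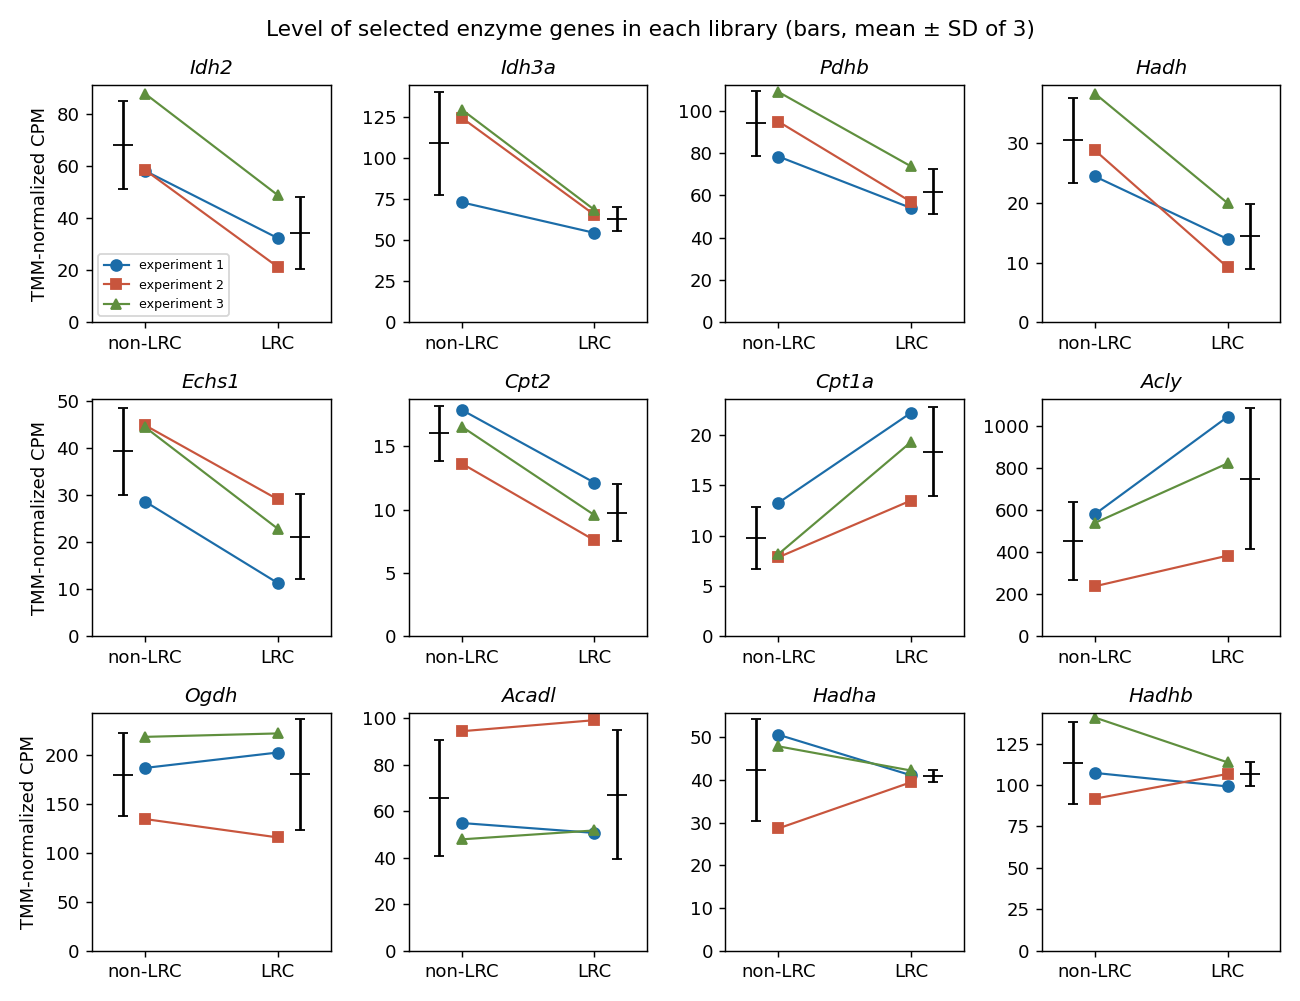
Level of 12 enzyme genes in each library. The y axis is TMM-normalized CPM from 0, lines join the 2 libraries of an experiment, and black bars give the mean ± SD of 3 libraries. Lines slope down for *Idh2*, *Idh3a*, *Pdhb*, *Hadh*, *Echs1* and *Cpt2* and up for *Cpt1a* and *Acly* in all 3 experiments, while *Ogdh*, *Acadl*, *Hadha* and *Hadhb* have no common slope.

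Of the 19 beta-oxidation genes, 18 passed the filter on low counts. Of these, 9 were lower in LRCs in all 3 experiments (26.1% of all genes) and 1, *Cpt1a*, was higher in all 3 (20.4%). In 3 genes, *Hadh*, *Cpt2* and *Eci2*, every LRC library lay below every non-LRC library (10.3% of all genes), and in *Cpt1a* every LRC library lay above (8.41%). An unadjusted edgeR p below 0.05 was reached by 6 in the lower and 1 in the higher direction (9.53% and 8.89% of all genes). At an adjusted p below 0.05 edgeR called 0, the lowest adjusted p being 0.0949, that of *Echs1*. DESeq2 called *Hadh* and *Echs1* lower and *Cpt1a* higher (6.15% and 6.16% of all genes). Taken by experiment, the median log2 difference was -0.35 in experiment 1, -0.17 in experiment 2 and -0.55 in experiment 3. In experiment 2 it was close to the median of all genes tested (-0.156), while that of the TCA genes was -0.63. The summed level of the group was 549, 720 and 626 CPM in LRCs, against 602, 747 and 808 CPM in non-LRCs, with overlap.

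The carnitine shuttle held differences of opposite sign. *Cpt1a*, the liver-type carnitine palmitoyltransferase of the outer membrane and the controlled step of fatty acid entry, had 22.2, 13.5 and 19.3 CPM in LRCs, against 13.3, 7.85 and 8.17 CPM in non-LRCs. The lowest LRC value lay only just above the highest non-LRC value. Its level was 1.89-fold higher in LRCs (edgeR log2 fold change 0.92, SE 0.27, adjusted p = 0.152, DESeq2 adjusted p = 0.0237). *Cpt2*, which reverses the reaction on the inner membrane, had 12.1, 7.60 and 9.59 CPM in LRCs, against 17.9, 13.6 and 16.6 CPM in non-LRCs. Here the groups separated in the other direction, with a level 1.66-fold lower in LRCs (edgeR adjusted p = 0.222). *Slc25a20*, the carrier between them, ranged from 21.3 to 30.3 CPM in LRCs and from 23.7 to 34.5 CPM in non-LRCs and was lower by 0.15 to 0.24 on the log2 scale in each experiment (edgeR log2 fold change -0.19, SE 0.19, with an unadjusted p of 0.339).

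None of the 4 acyl-CoA dehydrogenases, which take the first step of each round and differ in the chain length they accept, reached an unadjusted edgeR p of 0.05. *Acadl*, for long chains, had 50.7, 99.2 and 51.7 CPM in LRCs, against 54.9, 94.4 and 47.9 CPM in non-LRCs. Both *Acadl* libraries of experiment 2 were high, and the groups overlapped throughout (log2 fold change 0.02, SE 0.15). *Acadm*, for medium chains, had 20.6, 34.7 and 22.4 CPM in LRCs, against 22.0, 32.9 and 28.4 CPM in non-LRCs, again with the experiments farther apart than the groups (-0.12, SE 0.20). *Acadvl*, for very long chains, had 102, 118 and 99.4 CPM in LRCs, against 69.7, 94.0 and 107 CPM in non-LRCs.

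In *Acadvl* the LRC library was above its partner in experiments 1 and 2 and below it in experiment 3 (log2 fold change 0.25, SE 0.18). *Acads*, for short chains, had 2.57, 0.764 and 1.47 CPM in LRCs, against 3.44, 1.47 and 2.82 CPM in non-LRCs. It was lower in each experiment, but so low, with 16 counts in the LRC library of experiment 2, that its standard error of 0.67 was close to its log2 fold change of -0.76. *Acadvl* shares 1151 exonic bases with *Dvl2* on the other strand, and without the strand setting of the counting its reads cannot be assigned with certainty.

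The remaining steps of each round are carried by the trifunctional protein for long chains and by soluble enzymes for shorter ones. *Hadha*, with hydratase and dehydrogenase activity, had 41.1, 39.5 and 42.2 CPM in LRCs, against 50.6, 28.7 and 47.9 CPM in non-LRCs. *Hadhb*, its thiolase subunit, had 99.1, 107 and 114 CPM in LRCs, against 107, 91.8 and 141 CPM in non-LRCs. Both genes were nearly constant over the LRC libraries and varied more in non-LRCs, where both were lowest in experiment 2. These neighbours share 228 bases of their 250-base upstream windows. Their log2 differences had the same sign in each experiment (-0.30, 0.46 and -0.18 for *Hadha*, -0.11, 0.22 and -0.31 for *Hadhb*). A link between the shared bases and these signs was not tested. Fitted log2 fold changes were -0.01 (SE 0.22) and -0.07 (SE 0.16), which at this spread leaves room for a change of either sign.

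*Hadh*, the soluble 3-hydroxyacyl-CoA dehydrogenase for medium and short chains, had 13.9, 9.22 and 20.0 CPM in LRCs, against 24.4, 28.8 and 38.3 CPM in non-LRCs. No LRC library reached the lowest non-LRC library. The level was 2.18-fold lower in LRCs, the lowest fitted log2 fold change of the 39 members tested (edgeR log2 fold change -1.12, SE 0.26, adjusted p = 0.0958, DESeq2 adjusted p = 0.0027). *Echs1*, the short-chain enoyl-CoA hydratase that precedes it, had 11.4, 29.2 and 22.9 CPM in LRCs, against 28.7, 44.9 and 44.5 CPM in non-LRCs. The non-LRC library of experiment 1 fell just below the LRC library of experiment 2, while each pair differed by 0.62 to 1.33 on the log2 scale. For *Echs1* the level was 1.96-fold lower in LRCs (edgeR log2 fold change -0.97, SE 0.22, adjusted p = 0.0949, DESeq2 adjusted p = 0.00392), and without experiment 2 edgeR called it (adjusted p = 0.0302). *Acaa2*, the soluble thiolase, ranged from 4.44 to 8.21 CPM in LRCs and from 6.65 to 11.9 CPM in non-LRCs and had a fitted log2 fold change of -0.56 that was -0.23 without experiment 2.

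Of the 3 genes needed for unsaturated fatty acids, the isomerase *Eci2* and the reductase *Decr1* were lower in every experiment by a similar amount. *Eci2* had 12.3, 18.0 and 15.4 CPM in LRCs, against 18.2, 27.3 and 22.9 CPM in non-LRCs, where the lowest non-LRC value just exceeded the highest LRC value. *Decr1* had 17.6, 25.3 and 22.2 CPM in LRCs, against 23.9, 41.4 and 33.5 CPM in non-LRCs, with a small overlap. Both had a fitted log2 fold change of -0.58, with SE of 0.22 and 0.19 and edgeR adjusted p of 0.235 and 0.193. *Eci1*, another isomerase, ranged from 11.9 to 36.0 CPM in LRCs and from 17.2 to 31.2 CPM in non-LRCs, and was higher in experiment 2 and lower in the other experiments (-0.24, SE 0.24).

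The electron transfer flavoprotein passes electrons from the dehydrogenases to the respiratory chain through its own dehydrogenase, *Etfdh*. *Etfa*, its alpha subunit, had 53.2, 89.2 and 76.9 CPM in LRCs, against 69.8, 110 and 114 CPM in non-LRCs. The groups overlapped, but each pair was lower, by 0.39, 0.30 and 0.57 on the log2 scale (edgeR log2 fold change -0.42, SE 0.15, adjusted p = 0.209). *Etfb*, the beta subunit, ranged from 15.5 to 24.6 CPM in LRCs and from 23.4 to 35.2 CPM in non-LRCs and had a log2 fold change of -0.50 (SE 0.22, with an unadjusted edgeR p of 0.064), and 617 of its exonic bases are shared with another annotated gene on the same strand. *Etfdh* had 35.0, 33.9 and 33.6 CPM in LRCs, against 27.2, 26.2 and 50.7 CPM in non-LRCs. Its LRC values were almost equal, and its pairs differed in sign (log2 fold change 0.05, SE 0.26).

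**Figure D3:**
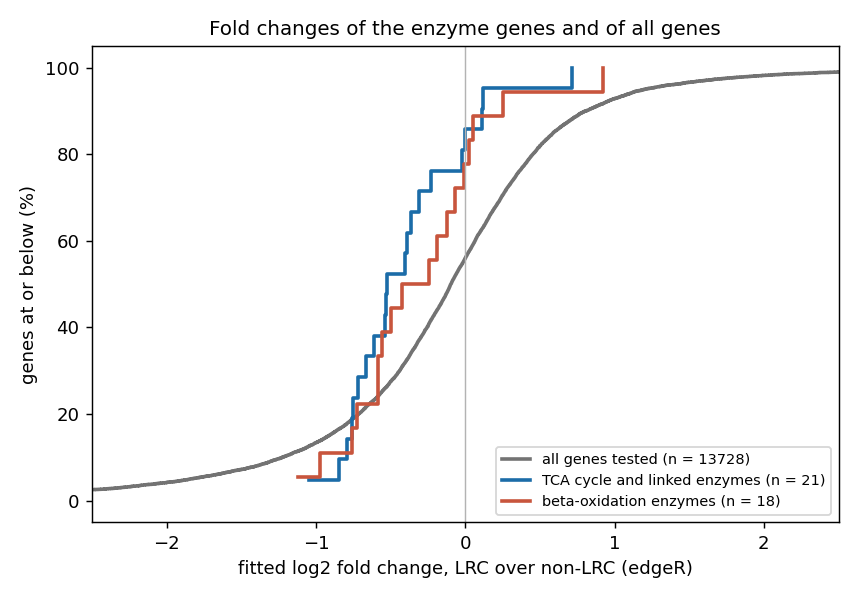
Cumulative share of genes by fitted edgeR log2 fold change for the 21 TCA genes, the 18 tested beta-oxidation genes and all 13728 genes tested. Near the centre the enzyme curves lie to the left of the grey curve of all genes, with medians of -0.53 and -0.33 against -0.10, and no member lies in its far tails.

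Ratios of related enzymes within a library do not depend on its scaling, although their counting error depends on its depth. For pairs of isoenzymes or subunits listed with the design, the log2 ratio in LRCs minus that in non-LRCs had a mean of 0.25 ± 0.33 (SD over 3 experiments) for *Idh1* to *Idh2*, -0.17 ± 0.35 for *Mdh1* to *Mdh2* and 0.14 ± 0.57 for *Suclg2* to *Sucla2*. The difference was -0.35 ± 0.46 for *Idh3a* to *Idh3b* and 0.14 ± 0.27 for *Acadl* to *Acadm*. In each of these 5 pairs the sign varied over the experiments, while the ratio of *Cpt1b* to *Cpt1a* could not be formed in the libraries without *Cpt1b* counts. Another 3 ratios were chosen after their values were seen. *Cpt1a* to *Cpt2* differed by 1.30, 1.62 and 2.03 on the log2 scale (1.65 ± 0.36), with a negative log2 ratio in all non-LRC libraries and a positive one in all LRC libraries. *Acly* to *Cs* differed by 1.29, 1.45 and 0.97 (1.24 ± 0.24), and *Hadh* to *Hadha* by -0.51, -2.10 and -0.76 (-1.12 ± 0.86). With 3 pairs an exact sign test cannot reach a two-sided p below 0.25, so no test was made.

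**Figure D4:**
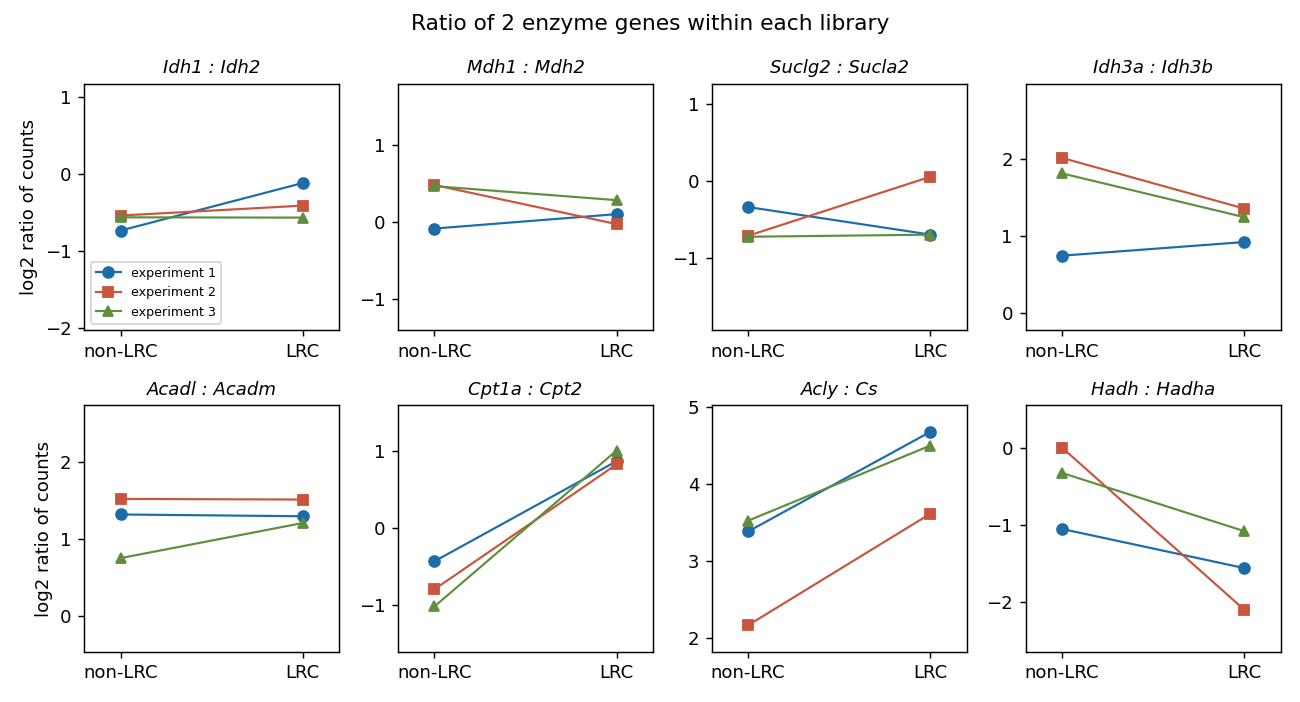
Log2 ratio of the counts of 2 enzyme genes within each library, for 8 pairs (each y axis spans the same number of log2 units, lines join the libraries of an experiment). The upper row and *Acadl* to *Acadm* have lines of mixed slope, whereas all 3 lines slope up for *Cpt1a* to *Cpt2* and *Acly* to *Cs* and down for *Hadh* to *Hadha*.

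Outside the 40 members, 28 genes of pyruvate use, the remaining TCA steps and mitochondrial carriers were tested. Of these, 20 were lower and 8 higher in LRCs (median log2 fold change -0.22), against 7690 and 6038 of all 13728 genes tested. At an unadjusted edgeR p below 0.05, 10 were lower and 0 higher (9.53% and 8.89% of all genes). DESeq2 called 7 lower and 0 higher (6.15% and 6.16% of all genes). The only gene of the list that edgeR called was *Mpc1* (1.28% of all genes in either direction). *Mpc1*, deposited under the older symbol *Brp44l*, codes for a subunit of the mitochondrial pyruvate carrier. It had 39.6, 89.7 and 78.1 CPM in LRCs, against 93.3, 178 and 153 CPM in non-LRCs. All LRC values of *Mpc1* were below the lowest non-LRC value, and the level fell by 1.06 on the log2 scale (SE 0.14, edgeR adjusted p = 0.0392). The genes with the next smallest p were *Sdhc* and *Sdhd*, membrane subunits of succinate dehydrogenase, with edgeR log2 fold changes of -1.05 and -0.69 (adjusted p = 0.0808 and 0.0934). They were followed by the carriers *Slc25a13* and *Slc25a11*, with -1.23 and -0.67 (edgeR adjusted p = 0.114 and 0.123). All of these subunit and carrier genes were called lower by DESeq2. *Pdha1* (-0.22) and *Pdk4* (0.76), coding for pyruvate dehydrogenase E1 alpha and its inhibitory kinase, had edgeR adjusted p of 0.461 and 0.301.

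A second list held 37 genes of fatty acid uptake, activation and other oxidation routes, of which 36 were tested, 23 lower and 13 higher (median -0.18). At an unadjusted edgeR p below 0.05, 3 were lower and 4 higher (9.53% and 8.89% of all genes), and edgeR called 0 after adjustment. DESeq2 called 1 lower and 2 higher (6.15% and 6.16% of all genes). *Slc27a1*, a fatty acid transporter, had 25.7, 34.6 and 18.3 CPM in LRCs, against 9.99, 4.97 and 7.54 CPM in non-LRCs, a separation in each library (edgeR log2 fold change 1.80, SE 0.38, adjusted p = 0.0834). *Acox3* (0.89) and the acyl-CoA synthetase *Acsl5* (-0.72) had edgeR adjusted p of 0.183 and 0.184. Of 18 regulators of these pathways, 15 were tested, 8 lower and 7 higher, and edgeR called 0. At an unadjusted edgeR p below 0.05, 1 was higher (8.89% of all genes). This was *Pprc1*, a PGC-1-related coactivator (log2 fold change 0.56, edgeR adjusted p = 0.141), which DESeq2 called. *Ppargc1a* had 0.0428 to 1.10 CPM in LRCs, against 0.0262 to 1.17 CPM in non-LRCs, *Esrra* 1.16 to 3.92 and 1.41 to 2.33 CPM, and *Ppara* did not pass the filter.

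Muscle and fat use these pathways heavily, so their markers were read beside the members. Of 15 skeletal muscle markers 9 were tested, all lower in LRCs, as were 7690 of all 13728 genes tested. The list had a summed level of 16.9 to 29.5 CPM in LRCs, against 48.5 to 68.6 CPM in non-LRCs. *Cav3*, *Tnni2* and *Tnnt3* held most of this sum, and *Cav3* was called (edgeR log2 fold change -2.80, adjusted p = 0.0440), while *Ckm*, *Myh1*, *Myh2* and *Myh7* were at or next to 0 in all libraries. *Adipoq*, *Lep*, *Retn* and *Cfd*, of the 8 adipocyte markers, had 0 counts in all 6 libraries, and 1 of the 8, *Cidea*, was tested (log2 fold change 0.45), with a summed level of 5.28 to 13.6 CPM in LRCs, against 4.87 to 6.73 CPM in non-LRCs. Of the 11 leukocyte and erythroid markers found, 5 were tested, and edgeR called 0. At an unadjusted edgeR p below 0.05, 1 was lower (9.53% of all genes), and DESeq2 called 1 lower (6.15% of all genes). This was the haemoglobin gene *Hbb-bs*, lower in LRCs in every experiment without overlap (edgeR log2 fold change -1.81, adjusted p = 0.139, DESeq2 adjusted p = 0.00635). The list had a summed level of 8.03 to 28.6 CPM in LRCs, against 12.6 to 19.9 CPM in non-LRCs, and *Ptprc*, which codes for CD45, had 0 counts in 5 libraries. The 5 endothelial markers summed to at most 0.573 CPM in LRCs, against 0.680 CPM in non-LRCs, with *Cdh5*, *Kdr* and *Emcn* at 0 throughout.

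Of 6 markers of superficial articular and synovial cells 4 were tested, and edgeR called all 4 higher in LRCs (1.28% of all genes in either direction). The list had a summed level of 494 to 2155 CPM in LRCs, against 68.7 to 106 CPM in non-LRCs. These genes are not limited to articular and synovial cells. For *Prg4*, which is on the list, the study saw RNA in the resting zone by in situ hybridization, far fainter than at the articular surface. It also counted nearly all tdTomato-positive cells released from the epiphyses as growth plate cells. Of 7 osteoblast and osteocyte markers 6 were tested, 4 lower and 2 higher. *Col1a1* was called higher (edgeR log2 fold change 2.38, adjusted p = 0.0151), whereas *Bglap* and *Bglap2* were lower in all 3 experiments (log2 fold changes -1.14 and -1.48, edgeR adjusted p = 0.117 and 0.116, both called by DESeq2), and the list summed to 123 to 252 CPM in LRCs, against 77.9 to 370 CPM in non-LRCs. Of the 10 chondrocyte markers 9 were lower in LRCs, and edgeR called 0. At an unadjusted edgeR p below 0.05, 5 were lower (9.53% of all genes), and DESeq2 called 3 lower (6.15% of all genes). The part of these cell types in the differences of the enzyme genes was not tested.

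Total counts were 18943789 to 129559872 per library, and the shallowest, the LRC library of experiment 2, had 1731 of the tested genes at 0, against 4 to 365 in the other 5 libraries. In that library 1 count was worth 0.0478 CPM, and it was the lowest of the 3 LRC libraries for 18 of the 39 tested members, such as *Idh2*, *Fh1*, *Hadh* and *Acly*, and the highest for 17, such as *Mdh1*, *Dld*, *Echs1* and *Etfa*. Without experiment 2 the median log2 fold change was -0.48 for the TCA genes and -0.35 for the beta-oxidation genes. edgeR then called *Idh2* and *Echs1* lower and *Acly* higher among the 39 members tested, with 5.37% of all genes called in either direction.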

How the data were processed

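RNA was measured in 6 libraries, 3 of LRCs and 3 of non-LRCs, grouped and numbered from the sample labels. The authors made complementary DNA with a SMART-Seq kit and libraries with Nextera XT, aligned single-end reads to mm10 (GRCm38) with TopHat2 2.0.13 and Bowtie2 2.2.1, and counted non-ambiguous reads per gene with HTSeq (versions from the submitters' processing notes). The gene annotation and the strand setting are not given in the sources used here, so reads of overlapping genes are uncertain, which touches 9 members. The deposited raw counts, which are not normalized, were the input of all analyses. Deposited tables of counts divided by size factors and of rlog values were not used here.

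The test was run with edgeR 4.0.16 under R 4.3.3. The filter was filterByExpr (minimum count 10, minimum total count 15), which left 13728 of 23159 genes and 39 of 40 members. Libraries were scaled by TMM, the experiment entered the model as a block, as in the study's paired analysis, and p-values of the quasi-likelihood test were Benjamini-Hochberg adjusted over all genes tested, with calls at an adjusted p below 0.05. CPM values are TMM-normalized, and log2 CPM of single experiments used a prior count of 2. The pairing was checked by the correlation of deviations from the group means between the libraries of an experiment, across genes (Pearson r of 0.197, 0.288 and 0.336). No library was a copy of another (chi-square per gene of 177 to 803). Labels do not say which animals entered an experiment, so p-values measure the spread between these pools. Exon lengths and overlaps came from GENCODE vM21, and promoter windows from RefSeq on GRCm38.p6.

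Alternatives were no block, DESeq2 1.42.0, limma-voom (limma 3.58.1), other scalings and filters, thinning to the smallest total and leaving out each experiment. The paired edgeR fit was tested on simulated data. The members, the other gene lists and the named genes were chosen with earlier results of these data known. Values in every library are given for members with an unadjusted p below 0.05, the 3 with the largest fold change in each direction of each pathway, and a fixed set of central enzymes, and the others are given by range. Some genes that this rule would name are not reported here.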

Additional observations from a re-analysis of the deposited data

How the results depend on the processing

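Without the replicate block edgeR called 1 gene of all genes and no member, against 176 genes and no member in the paired fit. Over all genes DESeq2 with the block called 1692 of 13751 with an adjusted p, and limma-voom with the block 1361 of 13728. With at least 10 counts in every library edgeR called 751 of 11129. Leaving out 1 experiment gave from 35 of 13805 (experiment 1) to 782 of 14568 (experiment 2, which holds the shallowest library). TCA genes called were 7 with DESeq2, 4 with limma-voom (*Idh2*, *Idh3a*, *Pdhb* and *Acly*), 3 with at least 10 counts in every library (*Idh2*, *Idh3a* and *Acly*) and 0 to 2 when 1 experiment was left out, with 2 without experiment 2. Beta-oxidation genes called were 3, 2, 2 and 0 to 1 in the same order, *Hadh* and *Echs1* under both limma-voom and the stricter filter, and *Echs1* without experiment 2. The cause of these differences was not tested, beyond the fewer genes or libraries that enter the stricter filter and the fits without an experiment. The median log2 fold change stayed between -0.57 and -0.42 for the TCA genes and between -0.35 and -0.24 for the beta-oxidation genes over all 11 alternatives.

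Signs changed only for 9 members close to 0 or driven by 1 experiment. *Aco1* was at -0.010 without the block, -0.027 with limma-voom, -0.004 with library totals and -0.001 without a filter, and at -0.155 to 0.193 when 1 experiment was left out. *Ogdh* was at 0.001 without the block and at -0.101 to 0.070 with 1 experiment left out, *Etfdh* at -0.022 and at -0.116 to 0.390, and *Hadha* at 0.063 after thinning and at -0.241 to 0.134. The other ranges with 1 experiment left out were -0.567 to 0.064 for *Dlat*, -0.467 to 0.626 for *Pcx*, -0.218 to 0.013 for *Acadm*, -0.003 to 0.086 for *Acadl* and -0.210 to 0.072 for *Hadhb*. With all libraries thinned to the smallest total edgeR called 237 genes and 0 members. The smallest library had 16 counts of *Acads*, and by counting error alone a count of 0 there allows up to 0.143 CPM.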
